A study of Mus musculus with 76 samples.

Results

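Ribosome biogenesis genes were followed in single mouse oocytes, single embryos and pieces of extraembryonic ectoderm by RNA-seq. They are the rows of 4 deposited count tables whose symbol belongs to the Utp, Nop, Rrp, Noc, Polr1 or Imp families, or is Rrs1, Fbl, Ncl, Dkc1, Wdr43 or Wdr75. This naming rule used no measured value and selected 40 of 48321 genes. By role, 20 act in the small subunit processome, 9 in large subunit assembly, 5 are subunits of RNA polymerase I, 5 are proteins of small nucleolar ribonucleoproteins (snoRNPs), and Ncl is the nucleolar protein nucleolin. The study asked how maternal depletion of Ezhip, which encodes an inhibitor of the Polycomb complex PRC2, affects early development. Wild type (WT) and Ezhip matKO samples were taken at 4 stages, and the labels give for each library its stage, genotype and sex. There were 3 WT and 4 matKO oocytes, all female; 11 WT (5 female, 6 male) and 12 matKO (6 female, 6 male) 2-cell embryos; 14 WT (6 female, 8 male) and 14 matKO (7 female, 7 male) blastocysts; and 10 WT (6 female, 4 male) and 8 matKO (5 female, 3 male) samples of extraembryonic ectoderm (ExE) at embryonic day 6.5, 76 libraries in all. The sources used here give neither the strain nor how the depletion was made.

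Ribosomes are built in the nucleolus. RNA polymerase I transcribes the ribosomal RNA precursor, and snoRNPs guide its chemical modification: Fbl, Nop56 and Nop58 belong to the box C/D class, Dkc1 and Nop10 to the box H/ACA class. The small subunit processome folds and cuts the part of the precursor that becomes the small subunit, and a separate set of factors, among them Nop2, Rrs1 and Noc2l, assembles the large subunit. An oocyte nearing the end of its growth shuts down ribosomal RNA synthesis and carries a store of ribosomes into the embryo, and the embryo restarts its own nucleoli after its genome is activated at the 2-cell stage. Utp14a lies on chromosome X, and Utp14b is an autosomal retrocopy of it that is known in mouse for its part in spermatogenesis; Dkc1 is the other member on chromosome X.

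Promoters are shown for 4 members chosen after their values and motifs were seen. Utp14b and Nop2 rose between oocyte and 2-cell embryo, Utp18 fell between blastocyst and ExE, and all 3 carry the E-box; Utp3, without it, was lower in matKO than in WT ExE. Each is the 250 bases before the RefSeq start (GRCm38.p6), read in the direction of transcription, with the E-box CACGTG, the site of Myc-type factors, in capitals. Utp14b is chr1:78658190-78658439 on the plus strand, Nop2 chr6:125131633-125131882 on the plus strand, Utp18 chr11:93885767-93886016 on the minus strand, and Utp3 chr5:88554212-88554461 on the plus strand. The deposited annotation starts Utp14b further upstream, at chr1:78658038, so its window lies within the span of the counted gene.
Utp14b: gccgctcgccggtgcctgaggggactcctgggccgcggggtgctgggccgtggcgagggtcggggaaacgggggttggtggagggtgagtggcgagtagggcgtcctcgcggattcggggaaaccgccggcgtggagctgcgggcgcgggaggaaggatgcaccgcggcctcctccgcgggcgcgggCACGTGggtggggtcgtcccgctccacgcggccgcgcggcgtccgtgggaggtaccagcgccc
Nop2: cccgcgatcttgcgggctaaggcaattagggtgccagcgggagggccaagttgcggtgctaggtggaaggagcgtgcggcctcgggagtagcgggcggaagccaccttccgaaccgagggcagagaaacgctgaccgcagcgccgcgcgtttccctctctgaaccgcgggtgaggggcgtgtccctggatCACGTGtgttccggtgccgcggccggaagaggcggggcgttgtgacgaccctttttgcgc
Utp18: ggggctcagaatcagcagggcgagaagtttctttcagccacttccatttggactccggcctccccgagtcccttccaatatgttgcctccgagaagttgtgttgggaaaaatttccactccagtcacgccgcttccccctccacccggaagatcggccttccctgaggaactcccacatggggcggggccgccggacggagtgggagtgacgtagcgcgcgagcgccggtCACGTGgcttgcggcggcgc
Utp3: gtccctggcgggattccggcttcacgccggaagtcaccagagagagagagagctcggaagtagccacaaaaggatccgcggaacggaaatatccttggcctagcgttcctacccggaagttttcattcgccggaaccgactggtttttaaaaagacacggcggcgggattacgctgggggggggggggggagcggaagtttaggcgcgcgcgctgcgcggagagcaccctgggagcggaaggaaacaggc

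The E-box begins 63 bases before the RefSeq start in Utp14b, 60 in Nop2 and 20 in Utp18, and these letters do not occur in the window of Utp3. A set of 5 motifs was searched on both strands in the 38 RefSeq promoters found for 34 members and in 32841 promoters of the same length over the genome. CACGTG occurred in 13.2% of the member promoters (Imp4, Nop2, Rrp7a, Utp14b and Utp18) and in 6.02% of all promoters. CCGGAAG, an ETS-type site, occurred in 15.8% against 6.91%, with Nop2, Utp18 and Utp3 among its carriers. CCAAT occurred in 36.8% against 33.9%, TATAAA in 5.26% against 12.4%, and the longer palindrome bound by NRF1 in 0 of the member promoters against 0.783%. A match describes the sequence only.

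Libraries held 1.05 to 32.0 M (mega) counts. Ezhip (listed as AU022751) was at 943 to 1463 counts-per-million (CPM) in WT oocytes and 0.113 to 0.590 in matKO oocytes, and at 31.3 to 347 in WT and 0 to 19.1 in matKO 2-cell embryos. Oocyte libraries held Zp3 and Gdf9, blastocysts Krt8 and Nanog, and ExE Elf5 and Eomes. Libraries stood apart at 2 stages. Cyp11a1, a steroid-synthesis gene of follicle cells, had over 10 counts in 8 of 11 WT 2-cell embryos and none in the 12 matKO embryos, and 7 of 12 matKO 2-cell embryos had 2-cell markers summing to 909 to 2123 CPM, against 267 to 443 in the other 5. These 2-cell sets are also runs of library identifier numbers: 28 to 36 against 25 to 27 in WT, and 42 to 48 against 37 to 41 in matKO. Outside these sets, matKO female replicate 4 had blood and macrophage markers summing to 3023 CPM, against 0.261 to 144 in the other 2-cell embryos. In ExE, 4 of 8 matKO libraries exceeded every WT library in markers of decidua, the maternal tissue around the embryo. ExE libraries also carry different identifier prefixes, D1042C for WT and D707T for matKO. The effect of the prefix and that of genotype cannot be told apart there. Oocytes and 2-cell embryos carry D707T, and blastocysts D405T or D707T. In whole embryos and tissue pieces, fewer cells of a type and less RNA per cell cannot be told apart.

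All 40 genes had counts in every library. Their summed level in WT was 2452 ± 325 CPM (mean ± SD, n = 3) at the oocyte stage, 7799 ± 2035 (n = 11) at the 2-cell stage, 4900 ± 714 (n = 14) at the blastocyst stage and 5679 ± 852 (n = 10) in ExE. In matKO the sums were 2785 ± 405.1 (n = 4), 7040 ± 2927 (n = 12), 5911 ± 1142 (n = 14) and 5345 ± 948 (n = 8). Every 2-cell embryo lay above every oocyte in both genotypes, and WT and matKO overlapped at each stage. The 2-cell embryos spread most: the 8 WT embryos with Cyp11a1 counts summed to 5878 to 6953 and the other 3 to 9913 to 12306, while the 7 matKO embryos with high 2-cell markers summed to 3923 to 6211 and the other 5 to 8637 to 13116. The spread within each genotype thus follows these sets of libraries, and the counts of called members that rest on them are also given without them. The embryo at 13116 was matKO female replicate 4, high in blood and macrophage markers, and it stayed in when the 7 were left out.

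**Figure D1:**
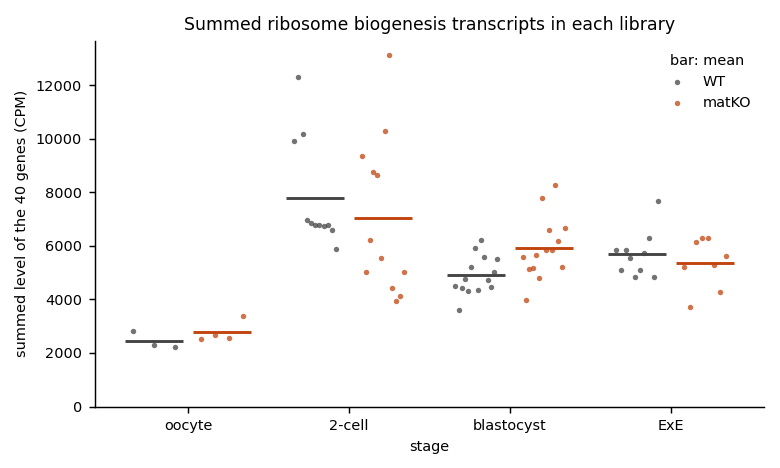
Summed CPM of the 40 ribosome biogenesis genes in each of 76 libraries, by stage and genotype, with bars at the group means. Oocytes lie lowest, with WT means rising from 2452 to 7799 CPM at the 2-cell stage, and the 2-cell libraries of each genotype are the most spread.

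Levels below are CPM scaled among the libraries of 1 stage, whereas log2 fold changes between stages come from edgeR's quasi-likelihood fit, which scales the libraries of both stages together, with Benjamini-Hochberg adjustment over all genes tested. The fitted change therefore need not equal the ratio of the CPM levels: Fbl averaged 178 CPM in WT 2-cell embryos and 187 in WT blastocysts, and its fitted change was 0.61 ± 0.20 (log2, ± SE). Per kilobase of exon, Imp3, a small-subunit factor bound to the precursor's leader, was the most abundant member in WT oocytes (151 CPM per kb), 2-cell embryos (467) and blastocysts (217), and Nop10 in WT ExE (357). Within the roles, Imp3, Nop16, Polr1d and Nop10 had the highest median per-kilobase level over WT libraries.

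From WT oocytes to WT 2-cell embryos most of these transcripts rose. Of the 40 members, 28 were higher and 1 was lower at an adjusted p under 0.05, where 39.1% of all genes tested were called, 22.8% higher and 16.3% lower. The median member changed by 1.86 (log2) and the median gene by 0.03. The increase ran through 16 of 20 processome genes, 6 of 9 large-subunit factors, 3 of 5 polymerase subunits and 3 of 5 snoRNP proteins, and Ncl was not called. In 26 members every 2-cell embryo lay above every oocyte, as did 16.8% of all genes.

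The steepest rises began from low CPM in these polyA libraries of oocytes. Nop2, the large-subunit rRNA methyltransferase, was at 14.3, 3.23 and 5.97 CPM in the 3 WT oocytes and at 244 to 777 (median 371) in WT 2-cell embryos, a change of 5.52 ± 0.57 (adjusted p = 4.01e-07). Utp14b was at 7.82, 6.27 and 11.6 CPM in oocytes and at 176 to 410 (median 297) in 2-cell embryos, a change of 5.03 ± 0.41 or 32.6-fold (adjusted p = 1.73e-08). Rrs1, which helps dock the ribonucleoprotein of the smallest ribosomal RNA on the large subunit, was at 3.61, 1.25 and 1.31 CPM and then at 57.2 to 159, a change of 5.25 ± 0.57. In none of these 3 genes did an oocyte reach the lowest 2-cell embryo. Nop16, another large-subunit factor, rose by 5.29 ± 0.60, Polr1c, a subunit shared by polymerases I and III, by 4.91 ± 0.61, Utp23 by 4.89 ± 0.56 and Rrp9, a protein of the snoRNP at the core of the processome, by 4.60 ± 0.56. Wdr43 and Polr1e, at higher CPM in oocytes, rose less. Wdr43, of the processome's early-binding subcomplex, was at 99.7, 88.2 and 105 CPM in oocytes and 609 to 1381 in 2-cell embryos (2.81 ± 0.31). The polymerase subunit Polr1e was at 33.5, 35.7 and 34.8 CPM and then 229 to 463 (3.03 ± 0.31).

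Noc4l, the processome partner of Nop14, went the other way. It was at 308, 286 and 191 CPM in WT oocytes and at 45.8 to 213 (median 98.9) in 2-cell embryos, lower than the oocyte mean in 11 of 11, with a change of -1.65 ± 0.42 (adjusted p = 0.00449). It was the only member whose WT mean CPM was highest in oocytes. Without the 8 WT 2-cell embryos with Cyp11a1 counts, 3 embryos remained, and 18 members were called (all higher) against 29, while the count over all genes went from 6504 to 2030. Noc4l then changed by -0.82 (adjusted p = 0.299). Ncl, the member with the highest CPM in WT blastocysts and ExE, was at 435, 110 and 179 CPM in oocytes and 160 to 338 in 2-cell embryos and was not called.

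In matKO embryos the same step gave 27 members higher and 1 lower, where 49.4% of genes were called (27.3% higher, 22.1% lower), with a member median of 1.77 against -0.02 for all genes. Nop2 changed by 5.55 ± 0.58, Utp23 by 5.52 ± 0.76, Rrs1 by 4.91 ± 0.71, Utp14b by 4.77 ± 0.41, Polr1c by 4.43 ± 0.64 and Wdr43 by 2.72 ± 0.35. Noc4l was again the lower one, at -1.43 ± 0.50 (adjusted p = 0.0231). Leaving out the 7 matKO embryos with high 2-cell markers gave 28 higher and 1 lower, and 9985 genes called in place of 7341. Whether a stage change differed between WT and matKO was not tested.

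**Figure D2:**
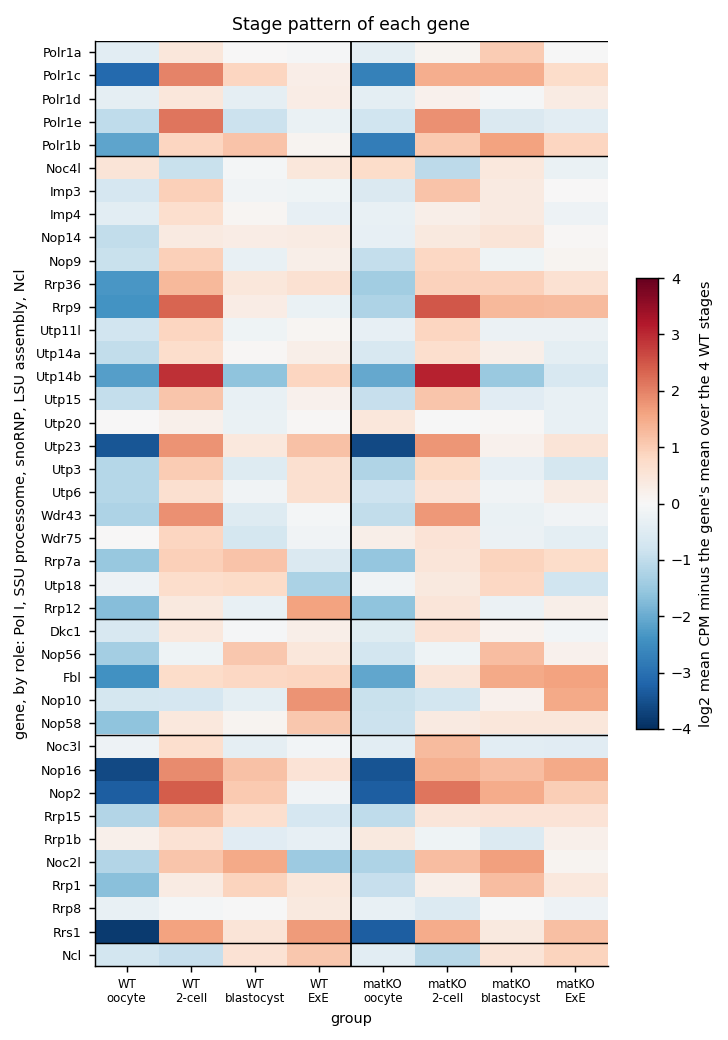
Log2 of the mean CPM of each member in each stage and genotype, minus the member's mean over the 4 WT stages, with lines between the roles. In WT, 26 of the 40 rows are highest at the 2-cell stage, in matKO 18, and Noc4l is higher in oocytes than at the 2-cell stage in both.

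From 2-cell embryo to blastocyst the genes split. In WT, 11 members were higher and 13 lower, where 72.8% of all genes were called (34.3% higher, 38.5% lower), so the members' count does not exceed the background. Utp14b fell from 176 to 410 CPM to 5.63 to 17.7, with no overlap, as in 17% of all genes in this direction, and a change of -4.03 ± 0.21 (adjusted p = 2.27e-15), the largest fall among members. Polr1e fell by 2.5 on the log2 scale and Wdr43 by 1.81, and Rrp9, Wdr75 and Utp3 by 1.51, 1.02 and 0.98. Ncl rose from 160 to 338 CPM (median 183) to 282 to 1023 (median 576), a change of 2.05 ± 0.20, and the box C/D protein Nop56 changed by 1.75 ± 0.21. Noc4l (1.36), Rrp1 (1.09), Noc2l (0.92) and Polr1b (0.80) also rose; without the WT embryos with Cyp11a1 counts Polr1b changed by 0.43 (adjusted p = 0.119). The split was 6 higher and 19 lower without those embryos (member median -0.33), where 4220 genes were higher and 3629 lower. It was also 10 higher and 16 lower with RLE size factors, and 6 higher and 25 lower with library totals alone, which moved the median of all genes to -0.60 (log2).

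In matKO the step gave 18 higher and 6 lower, where 75% of genes were called (36.6% higher, 38.5% lower); the counts were 12 and 11 with RLE size factors and 8 and 16 with library totals. Without the 7 matKO embryos with high 2-cell markers, 10 members were higher and 12 lower (member median -0.10), where 4729 genes were higher and 4724 lower. Utp14b fell by 4.06, Polr1e by 1.78 and Wdr43 by 1.40, and Noc3l, Utp23 and Utp15 fell by 1.06, 0.98 and 0.96. Ncl (2.24), Noc4l (2.17), Nop56 (2.01), Fbl (1.69), Polr1a (1.53) and Nop10 (1.53) were the clearest rises. Utp14b, Polr1e, Wdr43, Ncl, Nop56 and Noc4l were thus among the clearest changes of each genotype in the same direction.

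From blastocyst to ExE, WT libraries gave 15 members higher and 9 lower, where 67% of genes were called (35% higher, 32% lower). The WT libraries of these stages share no identifier prefix, so stage and prefix cannot be told apart in this step. Nop10, the small box H/ACA protein, was at 37 to 138 CPM (median 88.0) in blastocysts and 219 to 610 (median 375) in ExE, a change of 2.13 ± 0.21 or 4.38-fold, with no overlap, as in 13% of genes in this direction. Utp14b came back, from 5.63 to 17.7 CPM to 41.2 to 145 (median 65.9), a change of 2.52 ± 0.21, and Rrp12, Rrs1, Utp3 and Nop58 rose by 1.93, 1.27, 1.18 and 0.96. Noc2l, a large-subunit factor also known as an inhibitor of histone acetylation, went from 66.4 to 160 CPM (median 114) to 4.19 to 21.3 (median 14.5), a change of -3.00 ± 0.22 or 7.99-fold lower. Noc2l levels did not overlap between the stages, as in 9.29% of genes. Utp18 fell by 2.00, Rrp7a by 1.73, Rrp15 by 1.32, Nop2 by 1.24 and Polr1b by 1.02. In matKO the step gave 4 higher (Nop10 1.31, Utp14b 1.06, Rrs1 0.76, Rrp1b 0.74) and 10 lower, where 55.4% of genes were called (28.7% higher, 26.7% lower); with RLE size factors it was 5 and 7, and with library totals 3 and 12. Utp18 fell by 1.70, Noc2l by 1.56, Polr1a by 1.09, Nop56 by 1.00, Polr1b by 0.79 and Noc4l by 0.72. Without the 4 matKO ExE libraries high in decidua markers, 6 members were higher and 5 lower, and 5990 genes were called in place of 7460. Polr1a (-0.82, adjusted p = 0.133) and Noc4l (-0.43, adjusted p = 0.215) were then not called. All matKO ExE libraries carry D707T, and matKO blastocysts D405T or D707T. With blastocysts of D707T only, Rrs1 (0.80, adjusted p = 0.0511) and Rrp1b (0.54, adjusted p = 0.128) were not called. Rrs1 was also not called with library totals (adjusted p = 0.059). With replicate number as a block Rrs1, Utp14b, Polr1a and Noc4l were not called (adjusted p = 0.107, 0.232, 0.195 and 0.0752).

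Over the 3 steps in WT, 12 members rose into the 2-cell stage and then fell, among them Utp14b, Polr1e, Wdr43, Nop2, Rrp9, Utp3 and Polr1c, a pattern of 13.8% of the 12006 genes present in the 3 fits. Polr1b, Noc2l, Fbl, Rrp1, Utp18 and Rrp7a rose at both the first and the next step, as did 5% of genes. Without the WT 2-cell embryos with Cyp11a1 counts, 14 members rose and then fell (6.6% of genes), and Nop56 alone rose at both steps (1.1% of genes). By mean CPM, 26 members were highest at the 2-cell stage (32.3% of genes), 6 in blastocysts (20.3%), 7 in ExE (20.3%) and 1 in oocytes (27%). In matKO 18 were highest at the 2-cell stage (33.3% of genes), 13 in blastocysts (20.1%), 6 in ExE (20.3%) and 3 in oocytes (26.4%). Without the libraries that stand apart, 31 members in WT and 28 in matKO were highest at the 2-cell stage, as were 31.4% and 31.2% of genes.

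The Utp14 pair exchanged order between stages. Per kilobase, the median ratio of Utp14b to Utp14a within a WT library was 0.165 for oocytes, 2.09 for the 2-cell stage, 0.144 for blastocysts and 0.637 for ExE, and in matKO 0.123, 2.98, 0.0784 and 0.368. Utp14b thus exceeded its X-linked parent in the typical library at the 2-cell stage only, where single embryos still ranged from 0.759 to 5.69 in WT and 0.427 to 6.78 in matKO. Without the libraries that stand apart the 2-cell median was 1.38 in WT and 1.10 in matKO. By sex, WT 2-cell embryos ranged from 0.759 to 2.09 in females and 1.38 to 5.69 in males. In matKO the range was 0.427 to 2.89 in females and 3.06 to 6.78 in males. Most of the matKO embryos left out were male, so the matKO medians with and without them also differ in sex. Utp14a itself was at 17.7 to 31.4 CPM in WT oocytes, 36.7 to 125 at the 2-cell stage, 18.3 to 81.0 in blastocysts and 32.9 to 113 in ExE. Utp14b (chr1:78658038-78671512, plus strand) lies within Acsl3, a fatty acid activation gene on the same strand, with which it shares exon bases, so reads of either could be counted as the other. Acsl3 moved differently at the first step (-0.91 ± 0.35) but in the same direction at the later ones (-1.60 ± 0.21 and 1.67 ± 0.27 in WT).

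**Figure D3:**
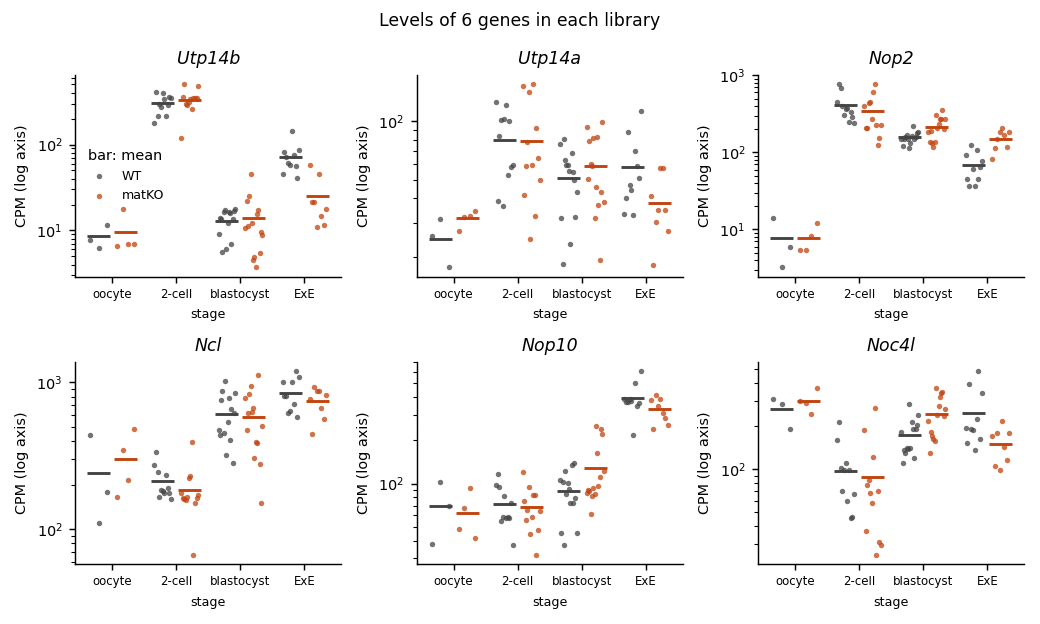
CPM on a log axis of Utp14b, Utp14a, Nop2, Ncl, Nop10 and Noc4l in every library, by stage and genotype, with bars at the means. Utp14b and Nop2 are under 20 CPM in every oocyte and above 100 in every 2-cell embryo, Ncl and Nop10 are highest in ExE, and Noc4l dips at the 2-cell stage.

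In oocytes no member differed between matKO and WT at an adjusted p under 0.05 by edgeR's quasi-likelihood test, where 0.0202% of genes did; 1 member had an unadjusted p under 0.05, and DESeq2 called 0. The member median was 0.15 against 0.02 for all genes. Without overlap between the groups, Nop14 was higher in matKO (51.0, 63.5, 64.1 and 67.1 CPM against 29.9, 38.2 and 50.4) and so was Utp11l (71, 75.6, 81.1 and 93.4 against 52.6, 63 and 65.4). Polr1b was lower (5.42, 7.31, 10.4 and 12.1 CPM against 12.8, 13.2 and 15.9). These 3 were picked for their lack of overlap, which 4.01% of genes showed upward and 3.96% downward.

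In 2-cell embryos no member was called either, where 0.641% of genes were; 3 had an unadjusted p under 0.05, and DESeq2 called 0. The member median was -0.16 against 0.02. It was 0.34 without the 7 matKO embryos with high 2-cell markers and -0.62 without the 8 WT embryos with Cyp11a1 counts, with 0 members called in both. Each fit left out the lower-summing set of a single genotype. No fit left out both, so like sets of the genotypes were not compared. The 3, named for that p, are large-subunit factors. Rrp15 was at 92.3 to 377 CPM (median 177) in WT and 37.6 to 332 (median 71.7) in matKO, a difference of -0.76 ± 0.35 (adjusted p = 0.317), and Rrp1b differed by -0.69 ± 0.34 (adjusted p = 0.346). Without the 7 matKO embryos these differences turned to 0.27 and 0.23, and without the 8 WT embryos they were -1.68 and -1.30. Noc3l was at 23.4 to 72.2 CPM (median 48.9) in WT and 36.5 to 106 (median 73.7) in matKO, a difference of 0.59 ± 0.22 (adjusted p = 0.207), and 0.89 and 0.86 without the same sets. The groups overlapped for all 3 genes.

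In blastocysts Polr1b, the second-largest and catalytic subunit of polymerase I (chr2:129100995-129126594, plus strand), was the 1 member called, where 6.13% of genes were, 2.65% higher and 3.48% lower. It was at 89.7 to 196 CPM (median 131) in WT and 113 to 248 (median 185) in matKO, above the WT mean in 13 of 14 matKO blastocysts. The groups overlapped, and the difference was 0.43 ± 0.12 or 1.34-fold (adjusted p = 0.0344). Within the libraries of prefix D405T it was 0.33 ± 0.17 (adjusted p = 0.283) and within D707T 0.58 ± 0.20 (adjusted p = 0.160), and leaving out 1 library lost the call in 7 of 28 cases (0.39 to 0.50, highest adjusted p = 0.0727). Wdr75, a processome protein, followed at 0.44 ± 0.14 (adjusted p = 0.0516), and 6 members had an unadjusted p under 0.05. Markers of the blastocyst's cell types moved with genotype. Of 8 trophectoderm markers 4 were lower and 0 higher, with sums of 2352 to 6851 CPM in WT and 1077 to 4939 in matKO. Of 7 inner cell mass markers 1 was higher and 0 lower (284 to 842 and 520 to 1273 CPM), and of 6 primitive endoderm markers 5 were tested and 1 was higher (205 to 452 and 167 to 646 CPM). Their part in the result was not tested.

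In ExE 8 members were higher and 6 lower in matKO than in WT, where 26.2% of genes were called, 14.9% higher and 11.4% lower. The member median was -0.15 against -0.07 for all genes. By role, 4 of 9 large-subunit factors were higher and 0 lower, and 2 of 20 processome genes were higher and 5 lower, a difference between roles that was not tested; 1 polymerase subunit was higher, and of the snoRNP proteins 1 was higher and 1 lower. Decidua markers moved with genotype: of 16, 12 were tested, 7 were higher and 0 lower, and their sum was 44.9 to 224 CPM in WT and 67.4 to 1120 in matKO. Lum was at 0 in 9 of 10 WT and 5 of 8 matKO libraries, and Dcn in 6 of 10 and 3 of 8, while Prl8a2 was present in every library. Of the 12 blood and macrophage markers, 4 of 5 tested were higher, with sums of 0.104 to 39.5 CPM in WT and 4.52 to 392 in matKO; the macrophage gene Adgre1 was at 0 in 9 of 10 and 7 of 8 libraries. Sums of embryonic markers overlapped between WT and matKO. They were 467 to 1168 and 771 to 4262 CPM for trophectoderm, and 209 to 560 and 297 to 1386 for primitive endoderm. For inner cell mass they were 37.98 to 506 and 15.9 to 269, and for ExE markers 421 to 1379 and 232 to 1630. The matKO library at 1386 and 232 was male replicate 1, of the set high in decidua markers. The part of these cell types in the result was not tested. Without the 4 matKO libraries high in decidua markers, Utp3 was the 1 member still lower.

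Among the large-subunit factors, Rrp15 (chr1:186720978-186749358, minus strand) was at 28.5 to 83.8 CPM (median 57.0) in WT and 74.6 to 214 (median 119) in matKO, a difference of 1.24 ± 0.24 or 2.36-fold (adjusted p = 0.000714). The highest WT library lay above the lowest matKO library, and without the 4 libraries the difference was 1.15 (adjusted p = 0.0178). Nop2 was at 36.5 to 123 CPM (median 63.6) in WT and 82.7 to 207 (median 160) in matKO, a difference of 1.14 ± 0.25 (adjusted p = 0.0024), and 1.19 without them (adjusted p = 0.0208). Noc2l was at 4.19 to 21.3 CPM (median 14.5) in WT and 5.42 to 72.7 (median 50.5) in matKO, above the WT mean in 6 of 8, a difference of 1.57 ± 0.36 (adjusted p = 0.00318), and 1.39 without them (adjusted p = 0.0463). The low matKO libraries of Noc2l thus lay within the WT range. Nop16 differed by 0.96 ± 0.21 (adjusted p = 0.00194), and by 0.70 without them (adjusted p = 0.0595), which ends the call.

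In the processome, Rrp9 (chr9:106475963-106485424, plus strand) was at 12.3 to 64.9 CPM (median 30.6) in WT and 37.5 to 174 (median 86.1) in matKO, a difference of 1.5 ± 0.30 or 2.84-fold (adjusted p = 0.00106). It was at 37.5 to 79.1 CPM in the 4 libraries high in decidua markers and 93.0 to 174 in the other 4, and without the former the difference was 1.96. Rrp7a was at 1.56 to 14.3 CPM in WT and 10.5 to 23.5 in matKO, a difference of 1.32 ± 0.30 (adjusted p = 0.00319), and 1.40 without them. Rrp9 shares exon bases with Parp3 on the other strand, and Noc2l with Samd11, and the sources used here do not say whether counting used strand.

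Utp3 (chr5:88554462-88556090, plus strand), a processome gene counted over a single interval, was lower in matKO with the smallest p of the members. It was at 187 to 432 CPM (median 266) in WT and 81.7 to 179 (median 99.9) in matKO, with no overlap, which 0.549% of genes showed in this direction. The difference was -1.37 ± 0.22 (adjusted p = 0.000115), and -1.31 without the 4 libraries (adjusted p = 0.00769). Utp14b was at 41.2 to 145 CPM (median 65.9) in WT and 11 to 58 (median 19.6) in matKO, a difference of -1.5 ± 0.31 (adjusted p = 0.00129). Rrp12 (chr19:41862852-41896153, minus strand), an export factor of pre-ribosomes, was at 103 to 298 CPM (median 129) in WT and 28.9 to 127 (median 57.4) in matKO, a difference of -1.37 ± 0.29 (adjusted p = 0.00171). Both were lower still in the libraries high in decidua markers: Utp14b was at 11 to 21.3 CPM there and 14.8 to 58 in the other matKO libraries, and Rrp12 at 28.9 to 58.4 and 56.3 to 127. Without those libraries Utp14b differed by -1.05 (adjusted p = 0.0519) and Rrp12 by -0.99 (adjusted p = 0.0582), neither past the threshold. Acsl3, the host of Utp14b, differed by -0.71 ± 0.32 (adjusted p = 0.105).

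The remaining calls were smaller. Polr1b was higher by 0.75 ± 0.20 (adjusted p = 0.00834), and by 0.90 without the 4 libraries (adjusted p = 0.0208). Fibrillarin (Fbl), the box C/D methyltransferase, was higher by 0.74 ± 0.23 (adjusted p = 0.0191), and by 0.95 without them (adjusted p = 0.0211). Nop58 fell by 0.61 (adjusted p = 0.0207), Utp23 by 0.67 (adjusted p = 0.0211) and Noc4l by 0.71 (adjusted p = 0.0459). Nop58, Utp23 and Noc4l were not called without the 4 libraries (adjusted p = 0.217, 0.0747 and 0.334), and Noc4l lost its call in 10 of 18 cases when 1 library was left out (-0.82 to -0.54). Rrp1b, not called over all libraries, then differed by 0.90 (adjusted p = 0.0253). In all, 8 members were then higher and 1 lower, where the count over all genes fell from 3439 to 2001.

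**Figure D4:**
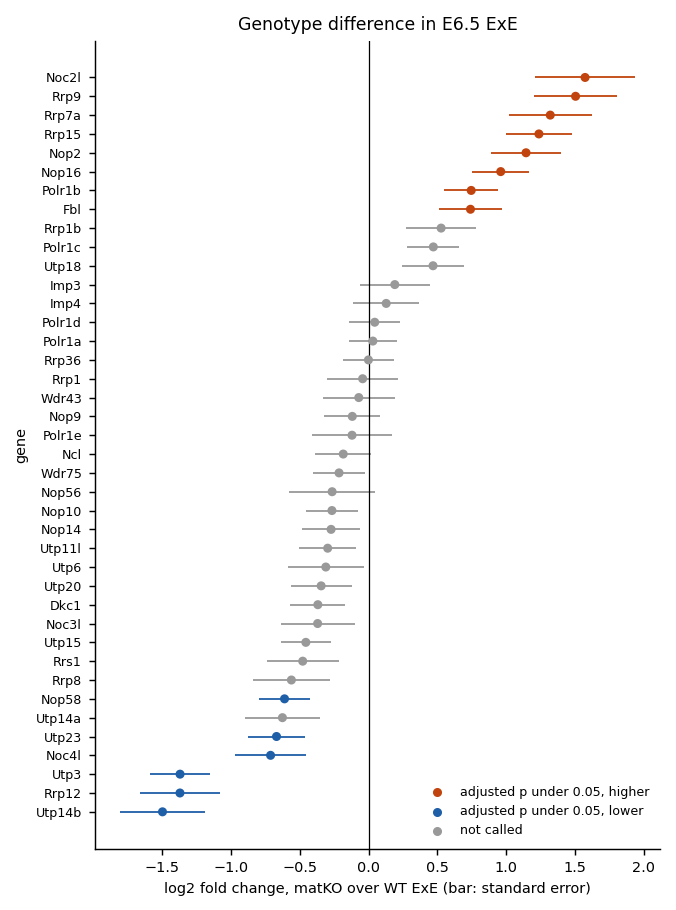
Log2 fold change of matKO against WT ExE with its SE for each of the 40 members, ordered by size and coloured by call. The large-subunit factors Noc2l (1.57), Rrp15 (1.24) and Nop2 (1.14) and the processome genes Rrp9 (1.5) and Rrp7a (1.32) lie at the top, and the processome genes Utp3 (-1.37), Utp14b (-1.5) and Rrp12 (-1.37) at the bottom.

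**Figure D5:**
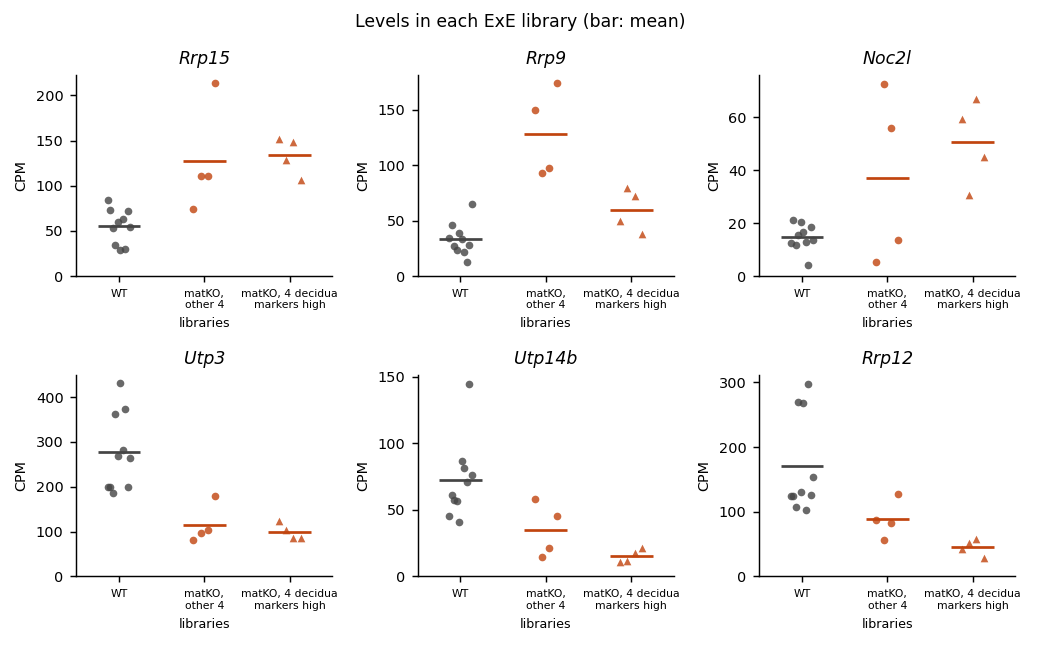
CPM of Rrp15, Rrp9, Noc2l, Utp3, Utp14b and Rrp12 in each ExE library: 10 WT, the 4 matKO libraries high in decidua markers and the other 4 matKO libraries, with bars at the means. Utp3 is lower in both matKO sets than in every WT library, and Utp14b and Rrp12 are lowest in the libraries high in decidua markers.

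The X-linked members were not called in any genotype comparison. Utp14a differed by -0.63 ± 0.27 in ExE (adjusted p = 0.0888), and Dkc1, the pseudouridine synthase of the box H/ACA class, by -0.37 ± 0.20 (adjusted p = 0.176). Without the 4 matKO libraries these were -0.31 (adjusted p = 0.530) and -0.18 (adjusted p = 0.658). Fitted by sex, 7 members were called in female ExE (Rrp15, Noc2l, Rrp9 and Nop16 higher, Utp14b, Utp3 and Rrp12 lower; 9.69% of genes called, 6.48% higher and 3.21% lower) and 3 in male ExE (Rrp15, Nop2 and Rrp9, all higher; 5.28% of genes, 4.23% higher and 1.05% lower). None was called in 2-cell embryos (0.0207% of genes in females, 0.875% in males) or blastocysts (0.21% and 1.45%) by edgeR; unadjusted p was under 0.05 for 0 and 7 members and for 4 and 3, and DESeq2 called 0 except for 2 in male 2-cell embryos. No member's genotype effect differed between the sexes at any stage (0%, 0.007% and 0% of genes called). In 2-cell embryos the median effect was 0.07 in females and -0.45 in males, and 5 of the 6 male and 2 of the 6 female matKO embryos were among those with high 2-cell markers.

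Other genes of ribosome biogenesis, 116 of them in 5 lists outside the naming rule, were counted in the same fits. From WT oocyte to 2-cell embryo 67 of 116 were higher and 7 lower, where 22.8% of all genes were higher and 16.3% lower. Of these, 33 of 52 further large-subunit factors and 8 of 10 further polymerase I factors were higher, but 14 were higher and 4 lower among 32 further processome genes. From 2-cell embryo to blastocyst 30 were higher and 47 lower in WT, where 34.3% and 38.5% of all genes were. In matKO 42 were higher and 29 lower (of 115), where 36.6% and 38.5% of genes were. From blastocyst to ExE 32 were higher and 37 lower in WT (35% and 32% of genes), and 13 and 32 in matKO (28.7% and 26.7%). Of the 13 RNA exosome genes tested, which trim the precursor, 9 fell and 1 rose at that last step in WT. Between genotypes, 0 of 114 were called in oocytes (0.0202% of all genes). In 2-cell embryos 1 of 116 was lower (0.641% of genes called), and in blastocysts 2 were lower (6.13% called, 3.48% lower). In ExE 18 were higher and 18 lower, where 14.9% and 11.4% of all genes were. Among them were 8 and 7 of the large-subunit factors, 3 and 6 of the processome genes, and 3 and 0 of the exosome genes.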

How the data were processed

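Single oocytes, embryos and ExE samples were profiled as polyA RNA, with libraries made from cDNA by a DNA library kit, per the labels' protocols. The deposited values are raw counts per gene in 4 tables, made per the submitters' processing notes with Trim Galore, STAR, SAMtools and featureCounts on mm10 (no version, strand or multi-mapping setting is given in the sources used here). Table columns were matched to samples by identifier; 8 columns matched none and were not used. No mitochondrial gene had counts. Counts were tested with edgeR 4.0.16 in R 4.3.3 (quasi-likelihood test, robust, TMM, filterByExpr with a minimum count of 10, Benjamini-Hochberg adjustment over all genes tested, threshold 0.05), with sex as a term and, in blastocysts, the identifier prefix; all 40 members passed the filter in every comparison. Stage comparisons were made within a genotype, without a prefix term. CPM use TMM factors of 1 stage; log2 CPM use a prior count of 2. Labels do not say whether samples of a group came from separate litters, so p-values measure the spread between these libraries, which may be partly technical; libraries of a group differed by more than sampling noise (lowest chi-square per degree of freedom 10.13). Scripts were tested on simulated data. Named genes were Ezhip, X-linked members, the most abundant member of each role, and up to 6 called in each direction per comparison with the smallest p; members and lists were chosen with earlier results of these data known. Motifs, coordinates and promoters come from RefSeq GRCm38.p6 and the deposited annotation. Alternatives were DESeq2 1.42.0, RLE factors, library totals, no filter, another edgeR dispersion setting, no sex or prefix term, single prefixes and the replicate block. Each library was left out in turn in genotype comparisons, and each oocyte in stage comparisons. The sets of libraries that stand apart, chosen after seeing the data, were also left out.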

Additional observations from a re-analysis of the deposited data

Results flagged for a closer look

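Within groups of 4 to 10 libraries, 106 combinations of group and value were examined for a library far from the others, and 12 had one. The values were the summed members and the genes named in the genotype comparison of the stage. Chance alone gives about 5% for independent normal values. Here groups by sex lie within groups of both sexes, and each library found was the highest of its group. For the summed members these were a WT female 2-cell embryo at 9913 CPM against 6761 to 6953 in the other 4, a matKO male 2-cell embryo at 10280 against 4411 to 6211, a WT female ExE library at 7680 against 4840 to 6282 in the other WT libraries, a WT female blastocyst at 5567 against 4309 to 4777, and a matKO oocyte at 3388 against 2538 to 2656. Both 2-cell embryos were the only ones of their groups outside the sets with Cyp11a1 counts or high 2-cell markers. That blastocyst was the only one of its group with prefix D707T. Utp14b in WT ExE reached 145 CPM in male replicate 3, against 41.2 to 86.5 in the other WT libraries and 70.9 to 81.2 in the other males, and in matKO ExE it reached 58 in female replicate 1 against 11 to 17.9 in the other females. Utp14a was at 113 CPM in the WT female ExE library with the highest member sum against 33.3 to 58.9. Nop2 was at 108 CPM in WT male ExE replicate 4 against 36.5 to 44.7, Rrp7a at 14.3 in WT female ExE replicate 2 against 4.82 to 8.37, and Utp3 at 179 in matKO male ExE replicate 3 against 81.7 to 124. None of 120 tests of a difference in genotype effect between the sexes passed the threshold.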

How the results depend on the processing

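Counts of called members stayed within 1.5 times their value under most settings. In blastocysts the count of 1 became 2 with another dispersion setting, 2 with RLE factors, 2 with DESeq2, 0 without a filter, 0 within prefix D707T and 4 without the prefix term. In ExE 14 became 9 without the matKO libraries high in decidua markers, and in WT 2-cell embryos against oocytes 29 became 18 without the embryos with Cyp11a1 counts. By sex, male 2-cell embryos went from 0 to 2 with DESeq2, male ExE from 3 to 7 with another dispersion setting and 7 with DESeq2. Replicate numbers were not treated as pairs in the main fits. Between genotypes, deviations of same-numbered pairs correlated over 0.1 in 1 of 8 in ExE, 2 of 11 in 2-cell embryos, 1 of 3 in oocytes and 5 of 13 in blastocysts. The median correlation in blastocysts was 0.097, against -0.024 for other numbers. With the replicate block matKO ExE against blastocysts went from 14 to 8 and ExE of both sexes from 14 to 10. The block took male 2-cell embryos from 0 to 2, female ExE from 7 to 3 and male ExE from 3 to 5. With 1 library left out the counts between genotypes ran from 0 to 2 in blastocysts and 13 to 15 in ExE. By sex they ran from 0 to 2 in male 2-cell embryos (2 without matKO male replicate 4), 3 to 8 in female ExE and 0 to 8 in male ExE. Male ExE had 0 without WT male replicates 1, 2 or 3 or matKO male replicate 2, and 8 without WT male replicate 4. In stage comparisons only oocytes were left out singly, which gave 24 to 28 in WT and 26 to 27 in matKO 2-cell embryos against oocytes. No single library was left out at the later steps. Directions were followed for X-linked members and for the called members with the smallest p in each comparison. Members named only for their abundance, and further called members, were not among these genes. Among the genes followed, directions turned for uncalled X-linked members only. Utp14a turned to 0.22 in 2-cell embryos without the embryos with high 2-cell markers and to -0.26 in blastocysts within D707T. Its sex difference in blastocysts turned to -0.15 with the replicate block. Rrp15 and Rrp1b, named in 2-cell embryos for their unadjusted p, also turned there, as given above. With 1 library left out Utp14a ran from -0.067 to 0.16 in female 2-cell embryos, its sex difference from -0.11 to 0.17 in blastocysts and -0.16 to 0.67 in ExE, Dkc1 from -0.042 to 0.098 in male 2-cell embryos and its sex difference from -0.21 to 0.030 in blastocysts. Over all genes, calls between genotypes in 2-cell embryos went from 87 to 439 with another dispersion setting, 675 with DESeq2 and 18 with the replicate block; in blastocysts from 847 to 1794, 1335 and 423; in oocytes from 3 to 36 with DESeq2.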
